A study of Homo sapiens with 40 samples.

Results

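DELE1, OMA1, YME1L1, OPA1, AFG3L2 and PHB2 encode proteins of the mitochondrial inner membrane and of the stress relay that starts there. They were taken by symbol from a table of raw read counts, in which each is 1 row, and make up 6 of 28278 gene symbols and 6 of the 16739 genes that passed the filter on low counts. The counts come from HEK293T cells, a human embryonic kidney line, in 40 libraries of 5 lines. The lines, as labelled, are SLC25A12 knockout cells given both SLC25A12-F137S and dMTS-DELE1 (dMTS-DELE1 cells below), knockout cells given SLC25A12-F137S (F137S cells), knockout cells given SLC25A12-WT, knockout cells given a vector (KO vector), and wild-type cells given a vector (WT vector). Each line received antimycin A, which blocks respiratory complex III, at 40 nM for 6 hours, or vehicle, which the titles call normal. There are 4 libraries per line and treatment, and the labels name them biological replicates without saying whether they are separate cultures, so p-values measure only the spread between these libraries. The labels give neither the promoters of the constructs nor whether a line is 1 clone. SLC25A12 is the mitochondrial carrier that exchanges aspartate and glutamate.

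OMA1 is a metalloprotease of the inner membrane that becomes active when mitochondria are stressed. It cuts DELE1, and the DELE1 fragment that reaches the cytosol activates the kinase HRI (EIF2AK1), which phosphorylates eIF2 and so raises translation of the transcription factor ATF4. OMA1 and YME1L1, the protease of the i-AAA complex, also cut OPA1, the GTPase that fuses inner membranes and shapes cristae. AFG3L2 is a subunit of the m-AAA protease, and PHB2 is 1 of the subunits of the prohibitin ring that surrounds such proteases. These steps act on proteins, whereas the values below are mRNA levels.

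The libraries hold 30730335 to 31965438 counts each. SLC25A12 stood at 3693 to 3745 CPM (counts scaled to 1e6 per library) in dMTS-DELE1 cells in vehicle, at 1826 to 1867 CPM in F137S cells and at 2.96 to 3.43 CPM in KO-vector cells, against 36.1 to 39.9 CPM in WT-vector cells. The libraries labelled knockout plus SLC25A12-WT held 38.4 to 39.2 CPM, within the range of WT-vector cells, and edgeR's quasi-likelihood test called 0 of 16739 genes between these 2 lines in vehicle (0%, with 778 genes at an unadjusted p below 0.05 and 0 called by DESeq2). They could thus not be told apart from WT-vector cells in vehicle, and are named "the libraries labelled SLC25A12-WT" throughout. Whether they hold what their label says was not tested. Each result on the 6 genes that does not involve them was also fitted without them. Of the markers of HEK293 cells, NEFL, NEFM and INA stood at 41.6 to 235 CPM in every library and PAX2 at 1.81 to 3.91. The kidney marker UMOD had 0 counts in all 40 libraries, and AQP2, NPHS1 and SLC34A1 reached at most 0.508 CPM. The fibroblast marker COL1A1 stood at 14.8 to 20.9 CPM in every library, above PAX2, while DCN, also of fibroblasts, reached at most 0.192 CPM. The blood markers PTPRC and CD3E reached at most 0.157 CPM, and the liver marker ALB at most 1.05 CPM.

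The promoters of DELE1 and OPA1 are shown because these genes moved, in opposite directions, under antimycin in every line without the DELE1 construct. The OMA1 promoter is shown because OMA1 differed most between lines. Each runs from 250 bases before to 50 bases after the gene's start in RefSeq on GRCh38.p14, read 5′ to 3′ on the gene's strand. They lie at chr5:141923621-141923920 on the plus strand for DELE1, at chr3:193592958-193593257 on the plus strand for OPA1 and at chr1:58546677-58546976 on the minus strand for OMA1. Capitals mark matches to the motifs searched on both strands, which were GCATGCG (the core of an NRF1 motif), CCGGAAG (an ETS motif) and TGATGNAAN (the CARE motif that ATF4 and C/EBP proteins bind).
DELE1: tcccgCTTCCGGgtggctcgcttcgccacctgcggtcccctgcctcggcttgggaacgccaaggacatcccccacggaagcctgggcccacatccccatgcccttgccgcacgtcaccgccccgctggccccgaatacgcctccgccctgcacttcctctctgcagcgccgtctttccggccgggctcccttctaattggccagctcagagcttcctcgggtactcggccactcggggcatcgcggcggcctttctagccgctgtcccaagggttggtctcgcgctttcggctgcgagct
OPA1: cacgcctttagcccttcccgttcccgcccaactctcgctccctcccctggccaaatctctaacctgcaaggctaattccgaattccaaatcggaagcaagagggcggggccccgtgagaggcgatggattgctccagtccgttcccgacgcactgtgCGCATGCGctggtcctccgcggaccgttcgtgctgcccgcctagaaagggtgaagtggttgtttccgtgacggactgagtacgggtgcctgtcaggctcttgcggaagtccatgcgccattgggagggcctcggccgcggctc
OMA1: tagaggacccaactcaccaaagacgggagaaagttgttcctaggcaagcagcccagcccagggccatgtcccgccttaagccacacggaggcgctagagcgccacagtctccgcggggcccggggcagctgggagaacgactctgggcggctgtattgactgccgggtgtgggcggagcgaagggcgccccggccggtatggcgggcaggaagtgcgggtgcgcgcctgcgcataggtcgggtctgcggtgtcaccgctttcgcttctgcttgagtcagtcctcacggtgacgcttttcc
OPA1 had 2 overlapping matches to the NRF1 core, 1 on each strand, which together read as the capitals shown, and 3.91% of the 35116 promoters in the table held that core. DELE1 had a match to the ETS motif at position -245, and 10.3% of promoters held it. PHB2 had 2 windows, which overlap, and each held the same 2 ETS matches. AFG3L2 and OMA1 had no match to any of the 3 motifs. The CARE motif, held by 3.61% of promoters, was not in these windows. YME1L1 is not shown.

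The genes lie on different chromosomes. On GRCh38.p14 DELE1 spans chromosome 5 from 141923871 to 141942047 and OPA1 chromosome 3 from 193593208 to 193697811, both on the plus strand. On the minus strand, OMA1 spans chromosome 1 from 58480719 to 58546726, YME1L1 chromosome 10 from 27110111 to 27154384, AFG3L2 chromosome 18 from 12328944 to 12377227 and PHB2 chromosome 12 from 6965327 to 6970753. OMA1 lies within DAB1, which had 20 to 56 counts per library against 1144 to 1650 for OMA1. SCARNA12 lies within PHB2 and had 163 to 257 counts against 10350 to 12701. AFG3L2 shares 883 bases with TUBB6, and the sources used here do not say whether strand was used in counting. Per kilobase of exon, PHB2 was the most abundant in WT-vector cells in vehicle at 260.6 CPM per kb. YME1L1 (31.6), AFG3L2 (31.1), OMA1 (26.6) and OPA1 (25.3 CPM per kb) lay close together, and DELE1 was the least abundant at 9.97 CPM per kb.

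**Figure D1:**
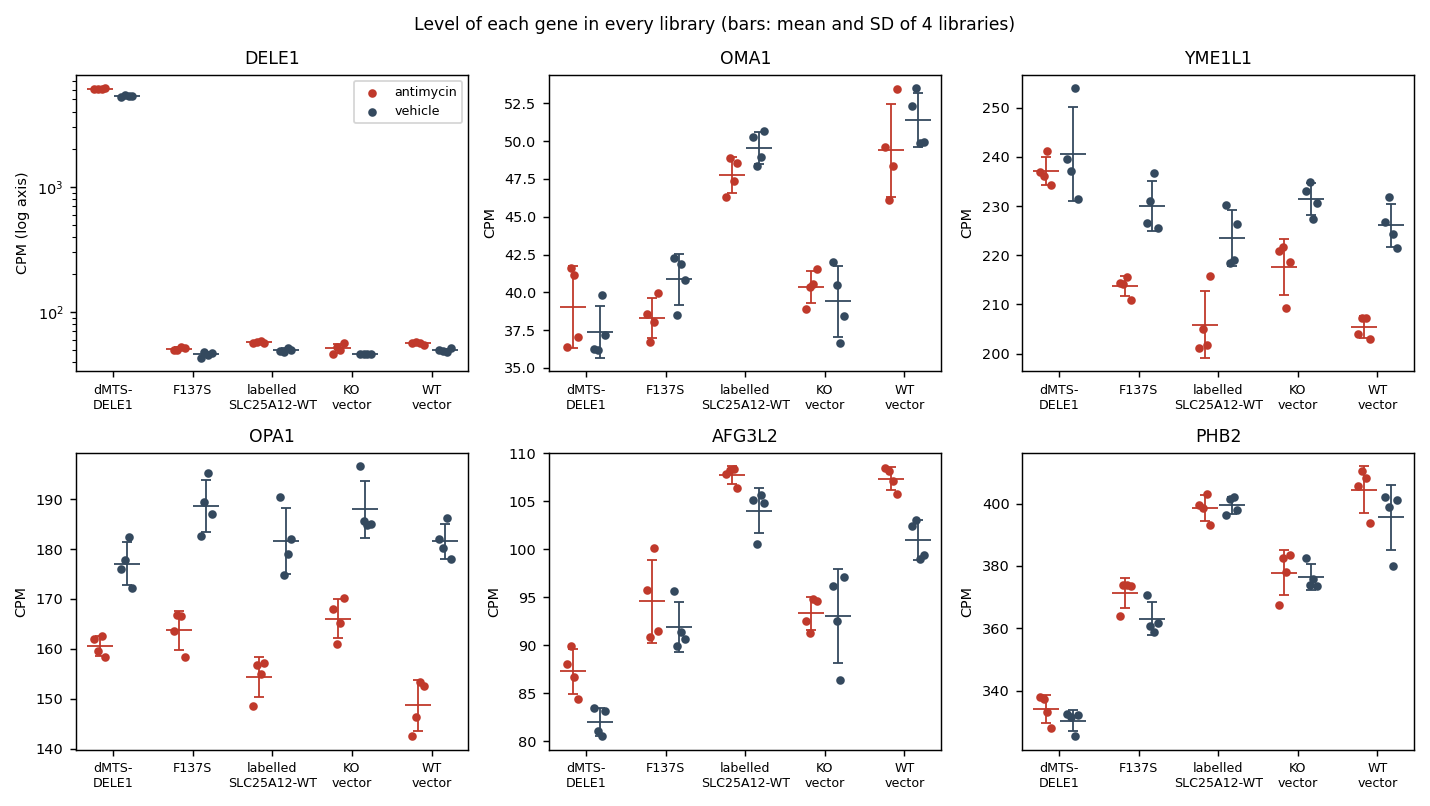
Level of each gene in CPM (over the tested genes, TMM-scaled) in every library of the 5 lines, antimycin left of vehicle in each; bars show the mean and SD of 4 libraries, axes do not all start at 0, and the DELE1 axis is logarithmic. DELE1 stands at 5272 CPM or more in the dMTS-DELE1 line, which carries the construct, and at 59.0 CPM or less in the other lines, and OPA1 is lower in antimycin than in vehicle in all 5 lines.

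The DELE1 row rose and OPA1 mRNA fell under antimycin in all 5 lines, with changes of 11.1% to 15.9% for DELE1 and -18.1% to -9.3% for OPA1. In dMTS-DELE1 cells the DELE1 row counts the construct, so the native gene was measured in the other lines only. YME1L1 fell in 4 of the 5 lines, AFG3L2 rose in dMTS-DELE1 and WT-vector cells, and neither OMA1 nor PHB2 passed edgeR's test in any line, while the DESeq2 Wald test called PHB2 in WT-vector cells (0.04, adjusted p = 0.0466). So 3 of the 6 genes passed in dMTS-DELE1 cells, where 34.9% of all tested genes did, 17.6% higher and 17.3% lower. In F137S cells 3 of 6 passed (51.2% of all genes, 26.3% higher and 24.9% lower), as in the libraries labelled SLC25A12-WT (52.3%, 25.9% higher and 26.4% lower) and in KO-vector cells (51%, 26.4% higher and 24.7% lower). In WT-vector cells 4 of 6 passed (51.9%, 25.5% higher and 26.4% lower). The count of genes that passed is thus near the background in each line. In bulk libraries a lower level per cell and fewer cells with the transcript cannot be told apart. Changes are log2 fold changes ± SE from edgeR's quasi-likelihood fit of all 40 libraries, with Benjamini-Hochberg adjusted p over the 16739 genes and a call at an adjusted p below 0.05.

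DELE1 is the substrate of OMA1 whose fragment carries the signal. In WT-vector cells it stood at 56.4, 57.5, 56.7 and 54.4 CPM in antimycin, against 49.6, 49.1, 48.0 and 51.6 CPM in vehicle. Every antimycin library lay above every vehicle library, and the change was 0.18 ± 0.04 (adjusted p = 7.51e-05). KO-vector cells held 46.6, 52.2, 50.1 and 57.0 CPM in antimycin, against 45.9, 46.0, 46.4 and 45.9 CPM in vehicle. Antimycin libraries of this line spread widely and their lowest only just cleared the vehicle libraries, with a change of 0.16 ± 0.04 (adjusted p = 0.000405). F137S cells held 50.1, 49.4, 52.9 and 51.8 CPM in antimycin, against 43.1, 47.9, 45.5 and 47.2 CPM in vehicle, with no overlap and a change of 0.15 ± 0.04 (adjusted p = 0.000831). The libraries labelled SLC25A12-WT ran from 56.4 to 59.0 CPM in antimycin, against 48.0 to 52.0 CPM in vehicle, a change of 0.21 ± 0.04 (adjusted p = 7.6e-06).

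In dMTS-DELE1 cells the DELE1 row counts the construct, and reads of the native gene cannot be told apart from it. It stood at 6046, 6056, 6077 and 6169 CPM in antimycin, against 5272, 5464, 5342 and 5298 CPM in vehicle, which is 0.533% to 0.629% of a library's counts. The rise of 0.19 ± 0.03 (adjusted p = 2.61e-07) had no overlap between libraries. SLC25A12, the other construct of these cells, rose by 0.20 in antimycin (adjusted p = 1.39e-14), while in F137S cells its change was 0.04 (adjusted p = 0.051). The part of that rise in the DELE1 value was not tested.

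OMA1 is the protease that cuts DELE1 under stress. It stood at 36.4, 41.6, 41.1 and 37.0 CPM in dMTS-DELE1 cells in antimycin, against 36.2, 36.2, 39.8 and 37.2 CPM in vehicle. In WT-vector cells it stood at 49.6, 46.1, 48.3 and 53.5 CPM in antimycin, against 52.3, 53.5, 49.9 and 49.96 CPM in vehicle. The libraries overlapped between treatments in every line. The changes ran from -0.09 (95% interval -0.18 to -0.00, adjusted p = 0.0755) in F137S cells to 0.06 (interval -0.03 to 0.15, adjusted p = 0.292) in dMTS-DELE1 cells. PHB2 likewise overlapped in every line, with changes of -0.00 (interval -0.04 to 0.03) in the libraries labelled SLC25A12-WT up to 0.03 (interval -0.00 to 0.07, adjusted p = 0.139) in F137S cells. Without antimycin replicate 4 of WT-vector cells, PHB2 passed there at 0.06 (adjusted p = 0.00781), and it did so also without vehicle replicate 1 (0.06, adjusted p = 0.017) or antimycin replicate 1 (0.05, adjusted p = 0.0452). It passed in F137S cells without antimycin replicate 1 (0.05, adjusted p = 0.0267).

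OPA1 is cut by OMA1 and YME1L1 and had the largest change of the 6 genes in WT-vector cells. It stood at 143, 146, 153 and 153 CPM in antimycin there, against 182, 180.3, 186 and 178 CPM in vehicle, a change of -18.1% (-0.29 ± 0.03, adjusted p = 4.64e-16). In KO-vector cells it stood at 168, 161, 165 and 170.1 CPM in antimycin, against 197, 186, 185 and 185 CPM in vehicle, a fall of 11.7% (-0.18 ± 0.03, adjusted p = 1.03e-08). Antimycin libraries lay below vehicle libraries by a clear gap in both lines. F137S cells held 163, 167, 167 and 158 CPM in antimycin, against 183, 189, 195 and 187 CPM in vehicle, a change of -0.20 ± 0.03 (adjusted p = 2.18e-10). In dMTS-DELE1 cells it stood at 162, 159.7, 163 and 158 CPM in antimycin, against 176, 178, 182 and 172 CPM in vehicle. The fall of 9.3% there (-0.14 ± 0.03, adjusted p = 7.47e-06) was the smallest of the 5 lines. The libraries labelled SLC25A12-WT gave -0.23 ± 0.03 (adjusted p = 1.97e-12).

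YME1L1, the catalytic subunit of the i-AAA protease, stood at 204, 207, 207 and 203 CPM in WT-vector cells in antimycin, against 227, 232, 224 and 221 CPM in vehicle. The fall of 0.14 on the log2 scale (SE 0.02, adjusted p = 5.47e-07) left no overlap. It also fell in F137S cells (-0.11 ± 0.02, adjusted p = 9.38e-05), KO-vector cells (-0.09 ± 0.02, adjusted p = 0.000893) and the libraries labelled SLC25A12-WT (-0.12 ± 0.02, adjusted p = 1.41e-05), again with no overlap. In dMTS-DELE1 cells it stood at 237, 236, 241 and 234 CPM in antimycin, against 239.6, 237, 254 and 231 CPM in vehicle. The libraries of that line overlapped and its change was -0.02 (95% interval -0.07 to 0.03, adjusted p = 0.54).

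AFG3L2 encodes the m-AAA subunit that can form the protease alone or with SPG7. In WT-vector cells it stood at 108, 108, 107 and 106 CPM in antimycin, against 102, 103, 99.0 and 99.4 CPM in vehicle (0.09 ± 0.03, adjusted p = 0.00939). In dMTS-DELE1 cells it stood at 88.1, 89.9, 86.7 and 84.4 CPM in antimycin, against 83.5, 81.1, 80.5 and 83.1 CPM in vehicle (0.09 ± 0.03, adjusted p = 0.0158). Neither line showed overlap, but the call in dMTS-DELE1 cells was lost without antimycin replicate 2 (0.07, adjusted p = 0.12) and in a fit of the 2 groups alone (0.08, adjusted p = 0.0536). TUBB6, which overlaps AFG3L2, had changes of 0.02 in WT-vector cells (adjusted p = 0.732) and -0.08 in dMTS-DELE1 cells (adjusted p = 0.0599). F137S cells (0.04, adjusted p = 0.261) and KO-vector cells (0.00, adjusted p = 0.925) overlapped. In the libraries labelled SLC25A12-WT the treatments did not overlap but the change of 0.05 did not pass (adjusted p = 0.15). It passed without vehicle replicate 3 (adjusted p = 0.0416) or antimycin replicate 4 (adjusted p = 0.042).

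**Figure D2:**
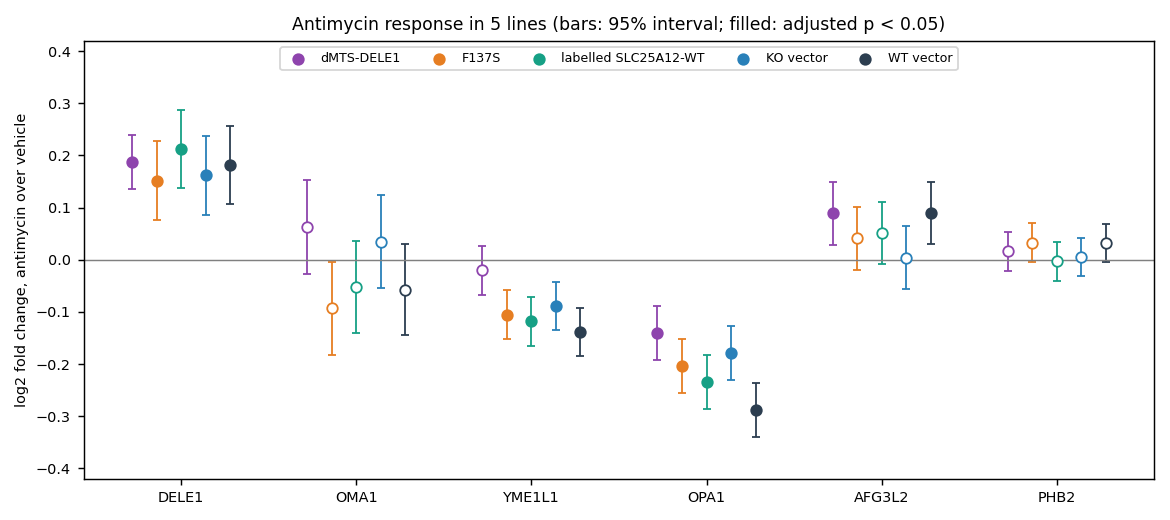
Log2 fold change of antimycin over vehicle for each gene (x axis) in 5 lines; bars are 95% intervals and filled points passed an adjusted p below 0.05. DELE1 lies above 0 and OPA1 below 0 in every line, and YME1L1 in dMTS-DELE1 cells lies near 0. The DELE1 point of dMTS-DELE1 cells counts the construct.

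Whether the response differed between lines was tested as a difference of responses, and 0 of the 6 genes passed in any of 4 such tests. Between dMTS-DELE1 and F137S cells 11.9% of all genes passed. Below an unadjusted p of 0.05 were 4093 of the 16739 genes and 2 of the 6. These 2 were OMA1, with a difference of 0.16 (95% interval 0.03 to 0.28, adjusted p = 0.0994), and YME1L1, with 0.08 (interval 0.02 to 0.15, adjusted p = 0.0818). The DESeq2 Wald test called YME1L1 alone (0.09, adjusted p = 0.0474). Without vehicle replicate 3 of dMTS-DELE1 cells both genes passed (OMA1 0.19, adjusted p = 0.0386, and YME1L1 0.11, adjusted p = 0.0108), and without antimycin replicate 1 of these cells OMA1 passed (0.19, adjusted p = 0.0442). OPA1 differed by 0.06 (interval -0.01 to 0.14, adjusted p = 0.295).

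Between KO-vector and WT-vector cells the response differed for 1.57% of all genes, and 1938 of the 16739 were below an unadjusted p of 0.05. OPA1 had the lowest p of the 6, with a difference of 0.11 (95% interval 0.04 to 0.18, unadjusted p = 0.00393, adjusted p = 0.131), so its fall was smaller in KO-vector cells by an amount that did not pass. AFG3L2 followed with -0.08 (interval -0.17 to -0.00, unadjusted p = 0.0492, adjusted p = 0.429). DESeq2 called 0 of the 6 here, in F137S against KO-vector cells, where 0% of all genes passed, and in the libraries labelled SLC25A12-WT against KO-vector cells (1.65%). In F137S against KO-vector cells 1 of the 6 was below an unadjusted p of 0.05, OMA1 with -0.13 (interval -0.25 to -0.00, adjusted p = 1). In the libraries labelled SLC25A12-WT against KO-vector cells 0 were. Of all 16739 genes, 711 were below it for F137S cells and 1952 for the libraries labelled SLC25A12-WT. The DELE1 response differed by -0.02 (interval -0.13 to 0.09) between KO-vector and WT-vector cells. It differed by 0.04 (interval -0.06 to 0.13) between dMTS-DELE1 cells, where the row counts the construct, and F137S cells.

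Between the lines, OMA1 showed the clearest division. The comparisons of lines share the KO-vector and F137S libraries, so they are not independent of each other. KO-vector cells held 23.4% less OMA1 mRNA than WT-vector cells in vehicle, and AFG3L2, DELE1 and PHB2 were lower by 4.8% to 7.8%. In vehicle 4 of the 6 genes passed, all lower, where 48.3% of all genes passed, 22.7% higher and 25.6% lower. In antimycin 6 of 6 passed, 4 lower and 2 higher, where 48% of all genes passed, 24.5% lower and 23.5% higher.

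OMA1 stood at 41.99, 40.5, 36.7 and 38.5 CPM in KO-vector cells in vehicle, against 52.3, 53.5, 49.9 and 49.96 CPM in WT-vector cells (-0.38 ± 0.04, adjusted p = 8.27e-12). In antimycin it stood at 38.9, 40.4, 40.6 and 41.6 CPM in KO-vector cells, against 49.6, 46.1, 48.3 and 53.5 CPM in WT-vector cells (-0.29 ± 0.04, adjusted p = 3.95e-08). The lines did not overlap in either treatment. Ordered by mean, the 4 groups of WT-vector cells and of the libraries labelled SLC25A12-WT came first at 47.8 to 51.4 CPM, and the 6 other groups followed at 37.4 to 40.9 CPM. Neighbours in this order overlapped, except at the step between those sets.

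AFG3L2 stood at 96.2, 92.5, 86.4 and 97.2 CPM in KO-vector cells in vehicle, below the 102, 103, 99.0 and 99.4 CPM of WT-vector cells (-0.12 ± 0.03, adjusted p = 0.000678). In antimycin the difference was -0.20 ± 0.03 (adjusted p = 1.9e-08), again without overlap. TUBB6 had differences of 0.02 in vehicle (adjusted p = 0.734) and 0.03 in antimycin (adjusted p = 0.581) between these lines. PHB2 stood at 383, 374, 376 and 374 CPM in KO-vector cells in vehicle, against 402, 399, 380.0 and 401 CPM in WT-vector cells (-0.07 ± 0.02, adjusted p = 0.000889). Replicate 3 of WT-vector cells, at 380.0 CPM, made these libraries overlap. In antimycin PHB2 did not overlap and differed by -0.10 ± 0.02 (adjusted p = 6.36e-06).

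DELE1 was lower by 7.1% in KO-vector than in WT-vector cells in vehicle (-0.11 ± 0.04, adjusted p = 0.019), without overlap. That call was lost without vehicle replicate 4 of WT-vector cells (-0.09, adjusted p = 0.0792), without the libraries labelled SLC25A12-WT in the fit (-0.09, adjusted p = 0.0604) and with no filter on low counts (-0.09, adjusted p = 0.0694). In antimycin DELE1 differed by -0.13 ± 0.04 (adjusted p = 0.0038), with overlap. OPA1 and YME1L1 were the 2 genes higher in KO-vector cells in antimycin. OPA1 differed by 0.16 ± 0.03 (adjusted p = 2.78e-07) and YME1L1 by 0.08 ± 0.02 (adjusted p = 0.00206), both without overlap. In vehicle their differences were 0.05 (95% interval -0.00 to 0.10, adjusted p = 0.105) and 0.03 (interval -0.01 to 0.08, adjusted p = 0.241). The vehicle difference of OPA1 passed with no filter (0.07, adjusted p = 0.0328), without the libraries labelled SLC25A12-WT (0.07, adjusted p = 0.0283) and in a fit of the 2 groups alone (0.06, adjusted p = 0.0322).

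F137S cells and KO-vector cells share the knockout and differ in the construct. The test called 0 of the 6 genes in vehicle, where 0.0836% of all genes (14) passed, and 0 in antimycin, where 0.114% (19) did. DESeq2 also called 0 of the 6. In vehicle 1 of the 6 was below an unadjusted p of 0.05 (1015 of all 16739 genes), and in antimycin 0 were (1058 of all genes). That gene was PHB2, at 371, 361, 359 and 362 CPM in F137S cells, against 383, 374, 376 and 374 CPM in KO-vector cells. These libraries did not overlap, and the difference was -0.05 (95% interval -0.09 to -0.02, adjusted p = 0.597). OMA1 had differences of 0.05 (interval -0.04 to 0.14) in vehicle and -0.08 (interval -0.16 to 0.01) in antimycin.

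The libraries labelled SLC25A12-WT against KO-vector cells gave, for OMA1, 0.33 ± 0.04 in vehicle (adjusted p = 1.3e-09) and 0.24 ± 0.04 in antimycin (adjusted p = 2.8e-06). In vehicle 4 of the 6 genes passed (47.8% of all genes), and in antimycin 6 did (48.2%). The vehicle count was 6 with DESeq2 size factors, which added YME1L1 (-0.06, adjusted p = 0.0275) and OPA1 (-0.06, adjusted p = 0.0478), and 3 to 6 with libraries left out. DELE1 lost its vehicle call with no filter (0.09, adjusted p = 0.0628) and without replicate 3 of the libraries labelled SLC25A12-WT (0.09, adjusted p = 0.0816), and YME1L1 and OPA1 gained theirs without replicate 1 of these (adjusted p = 0.0277 and 0.0205). In antimycin YME1L1 lost its call (-0.06 in each) without replicate 2 of KO-vector cells (adjusted p = 0.0546) or replicate 1 or 3 of the libraries labelled SLC25A12-WT (adjusted p = 0.0541 and 0.0544). Whether these libraries hold knockout cells with SLC25A12-WT, as labelled, was not tested, so the values cannot be read as a return of SLC25A12. Against WT-vector cells they differed for 0 of the 6 genes in vehicle and 0 in antimycin, where 0.00597% of all genes (1 gene) passed. At an unadjusted p below 0.05 were 0 and 1 of the 6, and 778 and 805 of all 16739 genes. DESeq2 called 0 of the 6 in either treatment.

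In dMTS-DELE1 over F137S cells the DELE1 row was 116-fold in vehicle and 119-fold in antimycin, which is the construct itself. SLC25A12 was also higher in dMTS-DELE1 cells, 2.01-fold in vehicle and 2.24-fold in antimycin. The parts of dMTS-DELE1 and of the higher SLC25A12 in the differences below cannot be told apart. In vehicle 6 of 6 genes passed, where 41.8% of all genes passed, 17.7% higher and 24.1% lower. Apart from DELE1, YME1L1 was higher and OMA1, OPA1, AFG3L2 and PHB2 were lower, by 4.6% to 10.7%. In antimycin 4 of 6 passed, DELE1 and YME1L1 higher and AFG3L2 and PHB2 lower, where 54.3% of all genes passed, 25.5% higher and 28.8% lower.

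PHB2 stood at 333, 332, 325 and 332 CPM in dMTS-DELE1 cells in vehicle, against 371, 361, 359 and 362 CPM in F137S cells (-0.14 ± 0.02, adjusted p = 5.42e-09). In antimycin it stood at 338, 337, 333 and 328 CPM in dMTS-DELE1 cells, against 364, 374, 374 and 374 CPM in F137S cells (-0.15 ± 0.02, adjusted p = 6.23e-11). The lines were apart in both treatments, and dMTS-DELE1 cells held the lowest PHB2 of the 5 lines. SCARNA12, which lies within PHB2, differed by -0.42 in vehicle (adjusted p = 0.000198) and by 0.02 in antimycin (adjusted p = 0.906).

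AFG3L2 stood at 83.5, 81.1, 80.5 and 83.1 CPM in dMTS-DELE1 cells in vehicle, against 95.7, 89.9, 91.4 and 90.7 CPM in F137S cells (-0.16 ± 0.03, adjusted p = 6.05e-06). In antimycin the difference was -0.12 ± 0.03 (adjusted p = 0.000765), also without overlap. TUBB6 was lower too, by 0.24 on the log2 scale in vehicle (adjusted p = 4.03e-08) and by 0.36 in antimycin (adjusted p = 2.67e-14), and its part in the AFG3L2 counts was not tested. YME1L1 was higher in dMTS-DELE1 cells by 0.07 ± 0.02 in vehicle (adjusted p = 0.0189), with overlap, and by 0.15 ± 0.02 in antimycin (adjusted p = 6.94e-08), without it. The vehicle call was lost without vehicle replicate 3 of dMTS-DELE1 cells (0.04, adjusted p = 0.251) or replicate 1 of F137S cells (0.06, adjusted p = 0.0615).

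OPA1 was lower in dMTS-DELE1 cells in vehicle, at 176, 178, 182 and 172 CPM, against 183, 189, 195 and 187 CPM in F137S cells (-0.09 ± 0.03, adjusted p = 0.00279). Without vehicle replicate 3 of F137S cells that call was lost (-0.06, adjusted p = 0.0897). In antimycin the difference was -0.03 (95% interval -0.08 to 0.02, adjusted p = 0.383). OMA1 stood at 36.2, 36.2, 39.8 and 37.2 CPM in dMTS-DELE1 cells in vehicle, against 42.2, 38.5, 41.9 and 40.8 CPM in F137S cells, which overlap (-0.13 ± 0.04, adjusted p = 0.0159). That call was lost without vehicle replicate 1, 3 or 4 of F137S cells or vehicle replicate 1 of dMTS-DELE1 cells, with differences of -0.11 to -0.10 and adjusted p of 0.0605 to 0.118, and in a fit of the 2 groups alone (-0.11, adjusted p = 0.0601). In antimycin OMA1 differed by 0.03 (interval -0.06 to 0.12, adjusted p = 0.633).

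**Figure D3:**
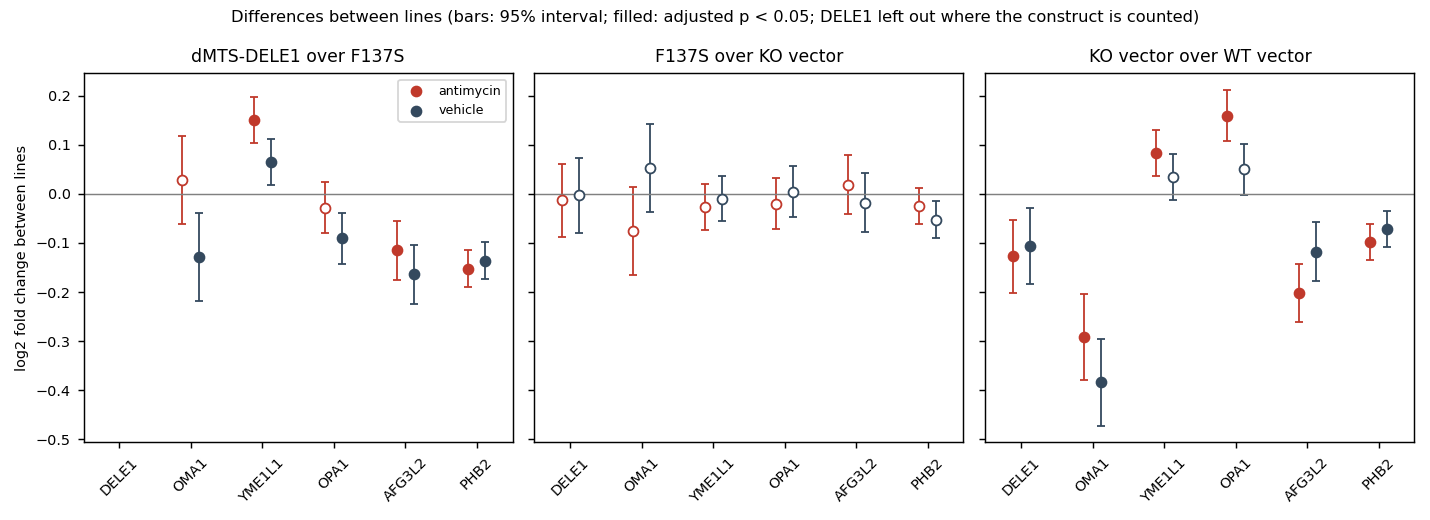
Log2 fold change of each gene between lines in antimycin and in vehicle; bars are 95% intervals and filled points passed an adjusted p below 0.05. OMA1 stands lowest in KO-vector over WT-vector cells at -0.38 in vehicle, and no point is filled for F137S over KO-vector cells.

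Over the 10 groups the mean log2 level of OMA1 spanned 0.46, that of AFG3L2 0.39, of OPA1 0.34, of PHB2 0.29 and of YME1L1 0.23. DELE1 spanned 0.33 over the 8 groups without the construct. Over these 8 group means Pearson's r was 0.988 between YME1L1 and OPA1 and 0.944 between AFG3L2 and PHB2. It was -0.966 between DELE1 and YME1L1 and -0.944 between DELE1 and OPA1. The groups share lines and treatments, so these values describe only how the levels were ordered.

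The genes whose group means followed each of the 6 most closely were taken from 12499 named genes, as the 3 with the highest Pearson's r. For OMA1 they were SMIM15, TMED5 and ZNRD2 (r of 0.9905, 0.988 and 0.988 over 10 groups). For OPA1 they were DGCR2, MIR17HG and PAFAH1B2 (r 0.992 to 0.993), and for YME1L1 TRAPPC8, UBE2D2 and AMIGO3 (r 0.989 to 0.992). AFG3L2 followed PTBP1, PROCR and NOA1 (r 0.988 to 0.991), and PHB2 followed ANAPC15, FBL and DBI (r 0.992 to 0.994). DELE1, over 8 groups, followed HIC2, GABARAP and EPHX1 (r 0.997 to 0.998).

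Other genes of the same machinery were read as lists. Of 12 other inner membrane proteases and partners, 1 rose and 4 fell under antimycin in WT-vector cells, where 25.5% and 26.4% of all genes did. IMMP1L, a signal peptidase subunit, fell by 0.43 on the log2 scale (adjusted p = 0.000156). PMPCA, a subunit of the mitochondrial processing peptidase, fell by 0.10 (adjusted p = 0.000771). HTRA2 fell by 0.14 (adjusted p = 0.039) and MAIP1, which binds the m-AAA protease, by 0.13 (adjusted p = 0.0156). The list's median log2 change was -0.02, and that of all genes 0.01. In KO-vector over WT-vector cells in vehicle 2 were higher and 4 lower (22.7% and 25.6% of all genes), with a median of -0.01 in the list and in all genes alike. MIPEP, a matrix peptidase, differed by -0.39 (adjusted p = 1.1e-10), PARL, a rhomboid protease that cuts PINK1 and PGAM5, by 0.32 (adjusted p = 3.38e-12), and PHB, the older symbol of the PHB2 partner PHB1, by -0.13 (adjusted p = 5.25e-08). In dMTS-DELE1 over F137S cells in vehicle 2 were higher and 4 lower (17.7% and 24.1% of all genes), with a median of -0.05 against -0.02 in all genes. PHB was again lower, by 0.18 on the log2 scale (adjusted p = 1.65e-11), as was SPG7, the m-AAA partner of AFG3L2, by 0.13 (adjusted p = 0.000504).

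Of 15 genes of fusion and fission, 2 rose and 5 fell under antimycin in WT-vector cells, with a median of -0.07, where 25.5% of all genes rose and 26.4% fell. MIEF1, a receptor for the fission GTPase DRP1, fell by 0.20 on the log2 scale (adjusted p = 2.17e-12), DNM1L, which encodes DRP1, by 0.16 (adjusted p = 8.42e-08) and the outer membrane fusion GTPase MFN1 by 0.19 (adjusted p = 6.05e-08). MIEF2 rose by 0.32 (adjusted p = 0.00075). MFN2, the other outer membrane fusion GTPase, differed by 0.45 ± 0.02 in KO-vector over WT-vector cells in vehicle (adjusted p = 1.42e-30), where 6 of the 15 were higher and 3 lower (22.7% and 25.6% of all genes). In dMTS-DELE1 over F137S cells in vehicle 1 was higher and 4 were lower (17.7% and 24.1% of all genes), among the lower MTFP1 (-0.20, adjusted p = 0.000682).

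Of 13 genes of cristae and the MICOS complex, 0 rose and 2 fell under antimycin in WT-vector cells, where 25.5% and 26.4% of all genes did. They were DNAJC11, which fell by 0.26 (adjusted p = 1.13e-11), and CHCHD3, which fell by 0.23 (adjusted p = 5.86e-10) on the log2 scale. Under antimycin 4 rose and 2 fell in KO-vector cells (26.4% and 24.7% of all genes) and in F137S cells (26.3% and 24.9%). In the libraries labelled SLC25A12-WT 1 rose and 2 fell (25.9% and 26.4%), and in dMTS-DELE1 cells 0 rose and 1 fell (17.6% and 17.3%). DESeq2 called 3 higher and 2 lower both in KO-vector cells and in the libraries labelled SLC25A12-WT. As a difference of responses 0 of the 13 passed between KO-vector and WT-vector cells (1.57% of all genes). In dMTS-DELE1 minus F137S cells 1 passed higher and 1 lower (8.24% and 3.7% of all genes). In KO-vector over WT-vector cells in vehicle 3 were higher and 6 lower (22.7% and 25.6% of all genes). MICOS13 differed by -0.80 ± 0.06 (adjusted p = 1.06e-20), more than any of the 6 genes described. In dMTS-DELE1 over F137S cells 0 were higher and 6 lower in vehicle, with a median of -0.08, and 1 was higher and 8 lower in antimycin, with a median of -0.12. IMMT, the core of MICOS, differed by -0.14 in vehicle (adjusted p = 2.89e-07). All genes had a median of -0.02 in both treatments, with 17.7% of them higher and 24.1% lower in vehicle, and 25.5% higher and 28.8% lower in antimycin. Of the list, the DESeq2 Wald test called 0 higher and 4 lower in vehicle, and 2 higher and 6 lower in antimycin.

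Of 10 other substrates of these proteases, 2 rose and 2 fell under antimycin in WT-vector cells, where 25.5% and 26.4% of all genes did. TIMM17A, an import subunit that YME1L1 degrades, fell by 0.27 on the log2 scale (adjusted p = 3.09e-15), and PINK1, the mitophagy kinase, rose by 0.26 (adjusted p = 0.000173). In KO-vector over WT-vector cells in vehicle 1 was higher and 2 lower (22.7% and 25.6% of all genes). TIMM17A was lower (-0.26, adjusted p = 4.19e-14), as was MRPL32, which the m-AAA protease matures (-0.21, adjusted p = 4.34e-07). In dMTS-DELE1 over F137S cells in vehicle 2 were higher and 6 lower (17.7% and 24.1% of all genes), with a median of -0.14 against -0.02 in all genes. GHITM differed by 0.33 (adjusted p = 2.25e-24) and the lipid transfer protein PRELID1 by -0.18 (adjusted p = 1.66e-06).

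The relay that DELE1 feeds was read from 12 genes, EIF2AK1 and EIF2S1 and the factors and targets of ATF4. Under antimycin 10 rose and 2 fell in WT-vector cells, with a median of 0.59, where 25.5% of all genes rose and 26.4% fell. In KO-vector cells 9 rose and 2 fell, with a median of 0.34, where 26.4% of all genes rose and 24.7% fell. Tested as a difference of responses, 5 of the 12 were lower and 0 higher in KO-vector than in WT-vector cells. Of all genes 0.729% were lower and 0.836% higher in that test, and DESeq2 called 6 of the 12 lower and 0 higher. CHAC1, an ATF4 target that degrades glutathione, stood at a mean of 17.1 CPM in antimycin against 1.90 CPM in vehicle in WT-vector cells (3.17 ± 0.12, adjusted p = 4.15e-30). In dMTS-DELE1 over F137S cells in vehicle 10 were higher and 1 lower, with a median of 0.61, where 17.7% and 24.1% of all genes were. CHAC1 averaged 18.3 CPM in dMTS-DELE1 cells and 2.97 CPM in F137S cells (2.62 ± 0.11, adjusted p = 2e-27). EIF2AK1, the kinase that DELE1 binds, was the lower gene (-0.10 ± 0.02, adjusted p = 5.67e-05), and ATF4 mRNA differed by 0.08 ± 0.02 (adjusted p = 0.000197). Under antimycin EIF2AK1 rose by 0.15 ± 0.02 in WT-vector cells (adjusted p = 1e-08) and ATF4 by 0.35 ± 0.02 (adjusted p = 1.22e-29), while in KO-vector cells ATF4 rose by 0.07 ± 0.02 (adjusted p = 0.000443). OPA1 averaged 177 CPM in dMTS-DELE1 cells in vehicle and 149 CPM in WT-vector cells in antimycin, where CHAC1 averaged 18.3 and 17.1 CPM. These 2 groups are of different lines and were not tested against each other. In vehicle OPA1 averaged 189 CPM in F137S cells and 182 CPM in WT-vector cells. The part of the relay in the OPA1 level was not tested.

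**Figure D4:**
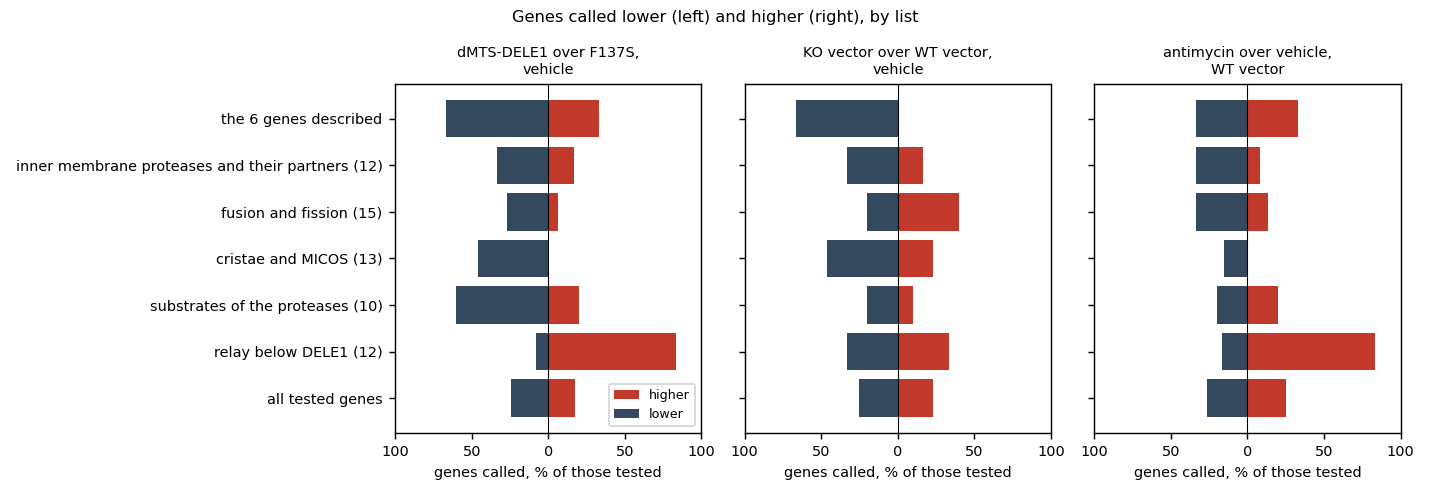
Share of each list's tested genes called lower (left of 0) and higher (right of 0) in 3 comparisons, beside the share over all tested genes; the 6 genes described include the DELE1 construct in the dMTS-DELE1 panel. The relay below DELE1 has 10 of 12 genes higher in dMTS-DELE1 over F137S cells and in WT-vector cells in antimycin, and cristae and MICOS genes have 0 higher in both.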

How the data were processed

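Poly(A) RNA was primed with random hexamers and sequenced as paired 150-base reads, per the labels' protocols. The deposited table holds raw counts per gene symbol. The tools named in the submitters' processing notes are HISAT2 2.1.0 and featureCounts 2.0.6, on hg38. Their settings, the gene annotation and the strand setting are not stated in what was available here.

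The tests used R 4.3.3 and edgeR 4.0.16. Counts were filtered with filterByExpr, scaled by TMM and fitted by the robust quasi-likelihood model with 1 coefficient for each of 10 groups of 4 libraries, which share 1 estimate of spread. Direct contrasts and differences of responses were tested, with Benjamini-Hochberg adjustment over 16739 genes and a call at an adjusted p below 0.05. SE and 95% intervals follow from each test's statistic. CPM are TMM-scaled counts over the tested genes, set to 1e6 per library, and log2 levels add a prior count of 2. The CPM of the cell type markers are instead counts set to 1e6 over all gene symbols, without TMM or the filter. The script was also run on counts simulated for the antimycin comparison of WT-vector cells alone, with the same spread for every gene. That setting is simpler than the real data, and no result here rests on it. Exon lengths are from GENCODE v29 and promoters from RefSeq, which held 5 of the 6 genes.

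The 6 genes, the lists and the comparisons were chosen with earlier results of these data known. Of each list at most the 4 called genes with the largest change were named, plus EIF2AK1, ATF4 and CHAC1. Likeness took genes other than clone, LOC or LINC names with a mean log2 CPM of at least 1. TUBB6, SCARNA12 and DAB1 are named because they overlap the 6 genes. The libraries of a group differed by more than counting noise in all 60 pairs (chi-square per degree of freedom 2.95 to 5.8), and the common biological coefficient of variation was 0.0509.

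Alternatives were DESeq2 size factors and the DESeq2 Wald test (DESeq2 1.42.0), no filter, the replicate number as a block, scaling without SLC25A12 and DELE1, fits without the libraries labelled SLC25A12-WT or of the compared groups alone, and each library left out in turn.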

Additional observations from a re-analysis of the deposited data

Results flagged for a closer look

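For the 6 genes and SLC25A12, 7 of 70 groups of 4 libraries had a library far from the other 3, and chance flags about 1 group in 20. DELE1 replicate 3 of KO-vector cells in vehicle was the highest at 46.37 CPM, with the next at 45.95 CPM, so the gap is under 1 CPM. OPA1 replicate 1 of the same group was the highest at 196.6 CPM, against 184.9 to 185.6 CPM in the others. AFG3L2 replicate 2 of the libraries labelled SLC25A12-WT in vehicle was the lowest at 100.5 CPM, with the next at 104.8 CPM.

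PHB2 was lowest in replicate 3 of WT-vector cells in vehicle at 380 CPM (next 398.9), in replicate 3 of dMTS-DELE1 cells in vehicle at 325.4 CPM (next 331.6) and in replicate 1 of F137S cells in antimycin at 364.1 CPM (next 373.6). SLC25A12 was highest in replicate 1 of KO-vector cells in vehicle at 3.431 CPM (next 2.986).

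The response of SLC25A12 to antimycin was larger in dMTS-DELE1 cells than in F137S cells by 0.16 ± 0.03 on the log2 scale (edgeR adjusted p = 6.44e-06), where both lines carry the F137S construct.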

How the results depend on the processing

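Of 114 results (6 genes in 19 comparisons), 0 reversed under any alternative. The call stayed on its side of the threshold in 112 with DESeq2 size factors, 108 with no filter, 114 with SLC25A12 and DELE1 left out of scaling, 110 in fits of the compared groups alone and 111 by the DESeq2 Wald test. Without the libraries labelled SLC25A12-WT it did so in 75 of 78. Leaving out each library in turn kept the call in 1080 of 1104 fits, with 13 lost and 11 gained. The count of the 6 genes whose response differed between dMTS-DELE1 and F137S cells was 0, and became 1 (YME1L1) with no filter, without the libraries labelled SLC25A12-WT and by the DESeq2 Wald test, and 0 to 2 with libraries left out; the cause was not tested. The count of all genes moved by over 1.5 times in F137S over KO-vector cells by the DESeq2 Wald test (24 against 14 in vehicle, 34 against 19 in antimycin), and it was 5 to 11 in vehicle and 12 to 28 in antimycin with libraries left out. The count of all genes whose response differed between the libraries labelled SLC25A12-WT and KO-vector cells was 276, and 180 to 247 with libraries left out. For the response of F137S minus KO-vector cells it was 0, and 1 without the libraries labelled SLC25A12-WT and in fits of the compared groups alone. Samples with the same replicate number did not deviate together (mean r -0.0015, from -0.132 to 0.133, with 12 of 40 libraries closest to their own number), and the replicate block moved 0 of 114 calls, with 0 genes again called for the response of dMTS-DELE1 minus F137S cells among the 6. Between the libraries labelled SLC25A12-WT and WT-vector cells, 0 and 1 genes in vehicle and antimycin became 1 and 0 in fits of those groups alone. The smallest difference called among the 6 genes was 4.6% (YME1L1, dMTS-DELE1 over F137S cells in vehicle), which is not a limit of detection. Larger ones did not pass edgeR's test, such as OMA1 under antimycin in F137S cells (-6.3%, adjusted p = 0.0755). The OMA1 response of dMTS-DELE1 minus F137S cells did not pass at 11.4% (adjusted p = 0.0994). Depth and 4 libraries a group limit what can be called.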
